A study of Mus musculus with 19 samples.

Results

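Interferon-stimulated genes are the genes that a cell switches on when interferon binds its receptors, and 43 of them were followed through a study of MED1 in fat cells. MED1 belongs to Mediator, a large complex through which transcription factors reach RNA polymerase II. A gene was taken from the deposited value table where the platform annotation gave exactly 1 symbol for a transcript cluster and that symbol was in the list, and the cluster with the highest mean over the 19 arrays was used where there were several. This left 40 of the 43 listed genes among 22180 genes in all. Gbp2 shares its cluster with Gbp2b and Dtx3l shares its cluster with Parp9, and no cluster names Ifi44 alone, so these 3 have no value here.

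Expression was read on Affymetrix arrays covering the mouse transcriptome, and values are log2 signals. The first experiment was in 3T3-L1 preadipocytes, established mouse cells of embryonic fibroblast origin in which hormones start fat cell differentiation. By their titles there were 2 arrays each of MED1-KO cells on day 2, wild-type (WT) cells on day 2, KO cells on day 0 and WT cells on day 0. The KO arrays hold RNA pooled from individual CRISPR/Cas9 clones and the WT arrays hold the parental line, so effects of picking clones and of losing MED1 cannot be told apart. The second experiment used interscapular brown fat of E17.5 embryos that carried Myf5-Cre with both Med1 alleles floxed (KO, 4 arrays) or Myf5-Cre with 1 floxed and 1 wild-type allele (control, 3 arrays). This Cre is active in the lineage that gives muscle and brown fat, and these controls carry Cre and a floxed allele too. The third used interscapular brown fat of mice at 10 weeks with both Med1 alleles floxed, with Adipoq-Cre (KO, 2 arrays) or without Cre (control, 2 arrays). Adipoq-Cre acts in mature fat cells, so other cells of the tissue keep Med1. Nothing in the labels says that replicates came from separate cultures or animals, so each p-value reflects array-to-array spread alone, part of which may be technical.

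Type I interferon signals through receptors that switch on the kinases JAK1 and TYK2, which phosphorylate STAT2. STAT2 and IRF9 are parts of a complex called ISGF3, which binds the interferon-stimulated response element in the promoters of its targets. Many targets are antiviral proteins, others are sensors of viral RNA or DNA, and STAT2, IRF9 and IRF7 are themselves induced, which amplifies the response. Fibroblasts in culture often keep a low level of this program without added interferon.

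The labels conflict about the day of 4 of the 8 cell arrays. In both genotypes, day 2 replicate 1 carries a source label of cells before the hormones and day 0 replicate 2 one of cells 2 days after them. Days below are those of the titles, the values by the source label stand beside the results, and values were never used to reassign an array. Only 1 array a group has the same day in both labels. The deleted gene Med1 had log2 signals of 7.08 and 7.0 on the KO arrays of day 2, against 8.55 and 8.28 on the WT arrays. On day 0 Med1 had 7.07 and 7.16 on the KO arrays, against 8.23 and 8.48 on the WT arrays, so its signal was lower on every KO array. The 3 experiments look normalized in separate runs, so no level is compared across them.

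The promoters show the element in part of the list. RefSeq promoter windows (build GRCm38.p6, 250 bases before to 50 after a gene's start) were matched by gene ID to 30 of the 40 genes, with 35 windows. The core of the response element was searched on both strands as GAAANNGAAA, which reads TTTCNNTTTC on the other strand, and matches may overlap each other. It was found for 12 of the 30 genes, or 40.0%, against 657 of 16918 genes tested that have a window, or 3.88%, and 3.44% of all 32851 windows. The 12 are Isg15, Ifit1, Ifit3, Apol9b, Bst2, Gbp3, Stat2, Oas3, Rsad2, Eif2ak2, Ifih1 and Trim21. A match is a description of letters and not a binding site, and a window with no match says only that these letters are not in it. The 10 genes not matched to a window are Dhx58, Ifi27, Mx1, Mx2, Oas2, Parp9, Parp14, Rtp4, Usp18 and Zbp1.

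Of the 12, 7 stretches are shown: Isg15, Ifit1, Apol9b, Gbp3 and Stat2 as examples from different roles that fell over the days in both genotypes, and Ifit3 and Oas3 because they carry the same core and passed the test over the days in neither. Each is written 5′ to 3′ on the strand of its gene, with the core in capitals and its genome position on GRCm38.p6. In Isg15 the first match starts 78 bases before the gene's start, and in Stat2 222 bases before it.
Isg15 (chr4:156200855-156200916, minus strand): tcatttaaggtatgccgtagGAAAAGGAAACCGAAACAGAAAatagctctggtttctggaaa
Ifit1 (chr19:34640765-34640833, plus strand): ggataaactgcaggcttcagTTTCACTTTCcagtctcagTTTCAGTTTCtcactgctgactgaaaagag
Ifit3 (chr19:34583353-34583436, plus strand): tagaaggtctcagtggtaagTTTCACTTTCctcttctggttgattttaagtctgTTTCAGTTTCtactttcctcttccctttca
Apol9b (chr15:77729015-77729070, plus strand): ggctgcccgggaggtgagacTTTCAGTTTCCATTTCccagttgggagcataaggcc
Gbp3 (chr3:142559979-142560034, plus strand): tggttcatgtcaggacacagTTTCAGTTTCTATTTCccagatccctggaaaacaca
Stat2 (chr10:128270256-128270305, plus strand): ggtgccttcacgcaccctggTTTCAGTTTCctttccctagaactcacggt
Oas3 (chr5:120777705-120777754, minus strand): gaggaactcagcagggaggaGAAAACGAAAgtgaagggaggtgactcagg

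The interferon-stimulated genes fell between day 0 and day 2 in both genotypes. In KO cells 27 of the 40 were lower on day 2 and 0 were higher, where 3.57% of all genes were called lower and 2.14% higher (limma, Benjamini-Hochberg adjusted p under 0.05). In WT cells 35 of the 40 were lower and 0 were higher, against a background of 5.64% lower and 3.44% higher. The list was chosen with earlier results of these data known. The shares over all genes, here and below, are therefore a description and not a test of the list. The median log2 fold change of the 40 genes was -1.26 in KO cells and -2.16 in WT cells, and over all genes it was 0.01 in KO cells and 0.03 in WT cells. Of the 100 genes with the lowest day change among all 22180, 12 were on the list in KO cells and 25 in WT cells, and Oasl2 had the lowest value of all genes in WT cells. The plot of mean levels shows the order of the groups: the mean log2 signal of the 40 genes was 5.49 and 5.47 on the KO arrays and 5.53 and 5.63 on the WT arrays of day 2, against 6.69 and 6.72 on the KO arrays and 7.51 and 7.81 on the WT arrays of day 0. The day 2 arrays lay below all day 0 arrays, and on day 0 both KO arrays lay below both WT arrays.

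**Figure D1:**
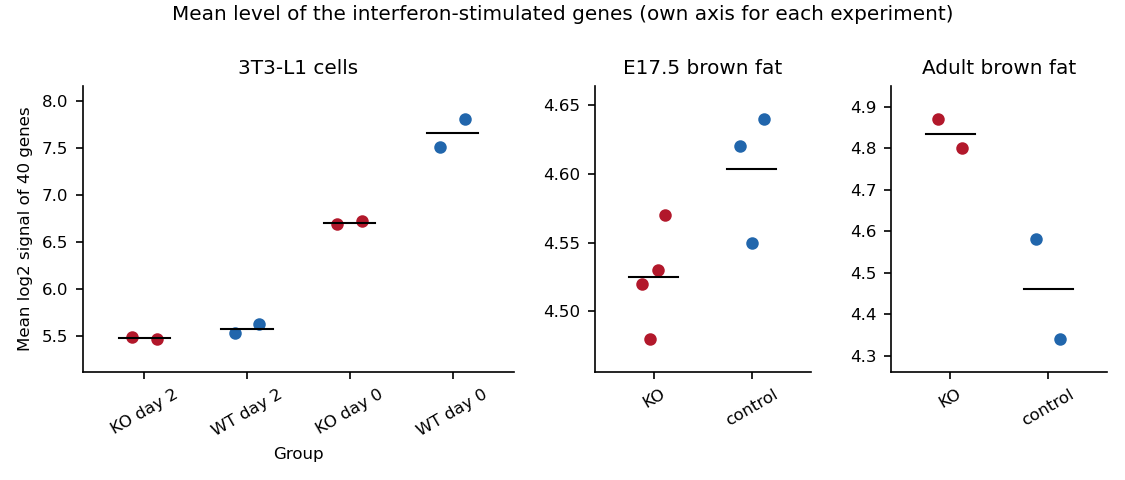
Mean log2 signal of the 40 interferon-stimulated genes on each array (points; red, KO; blue, WT or control) with the group mean (line), on a separate axis for each experiment. In cells the day 2 arrays lie between 5.47 and 5.63 and the day 0 arrays between 6.69 and 7.81, with WT above KO on day 0.

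By the source label, under which each group holds 1 array of each title day, 0 of the 40 genes were called in either genotype, and the medians were 0.00 in KO cells and 0.15 in WT cells. With only the arrays on which both labels agree, 1 a group and so with no test, 39 of the 40 genes were lower on day 2 in KO cells, with a median of -1.24, and 38 in WT cells, with a median of -2.09. Over all genes 50.4% were lower in KO cells and 48.3% in WT cells by the same arrays. Markers of fat cells moved with the days: of 8 adipocyte genes, 3 were higher on day 2 in KO cells and 7 in WT cells. Markers of fibroblasts and preadipocytes fell beside the list, 5 of 8 in KO cells and 5 of 8 in WT cells, with list medians of -0.80 in KO cells and -1.01 in WT cells. The part of these marker changes in the fall of the interferon-stimulated genes was not tested. Of 10 macrophage genes 0 passed the test over the days in either genotype by limma, and 1 had an unadjusted p under 0.05 in each.

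**Figure D2:**
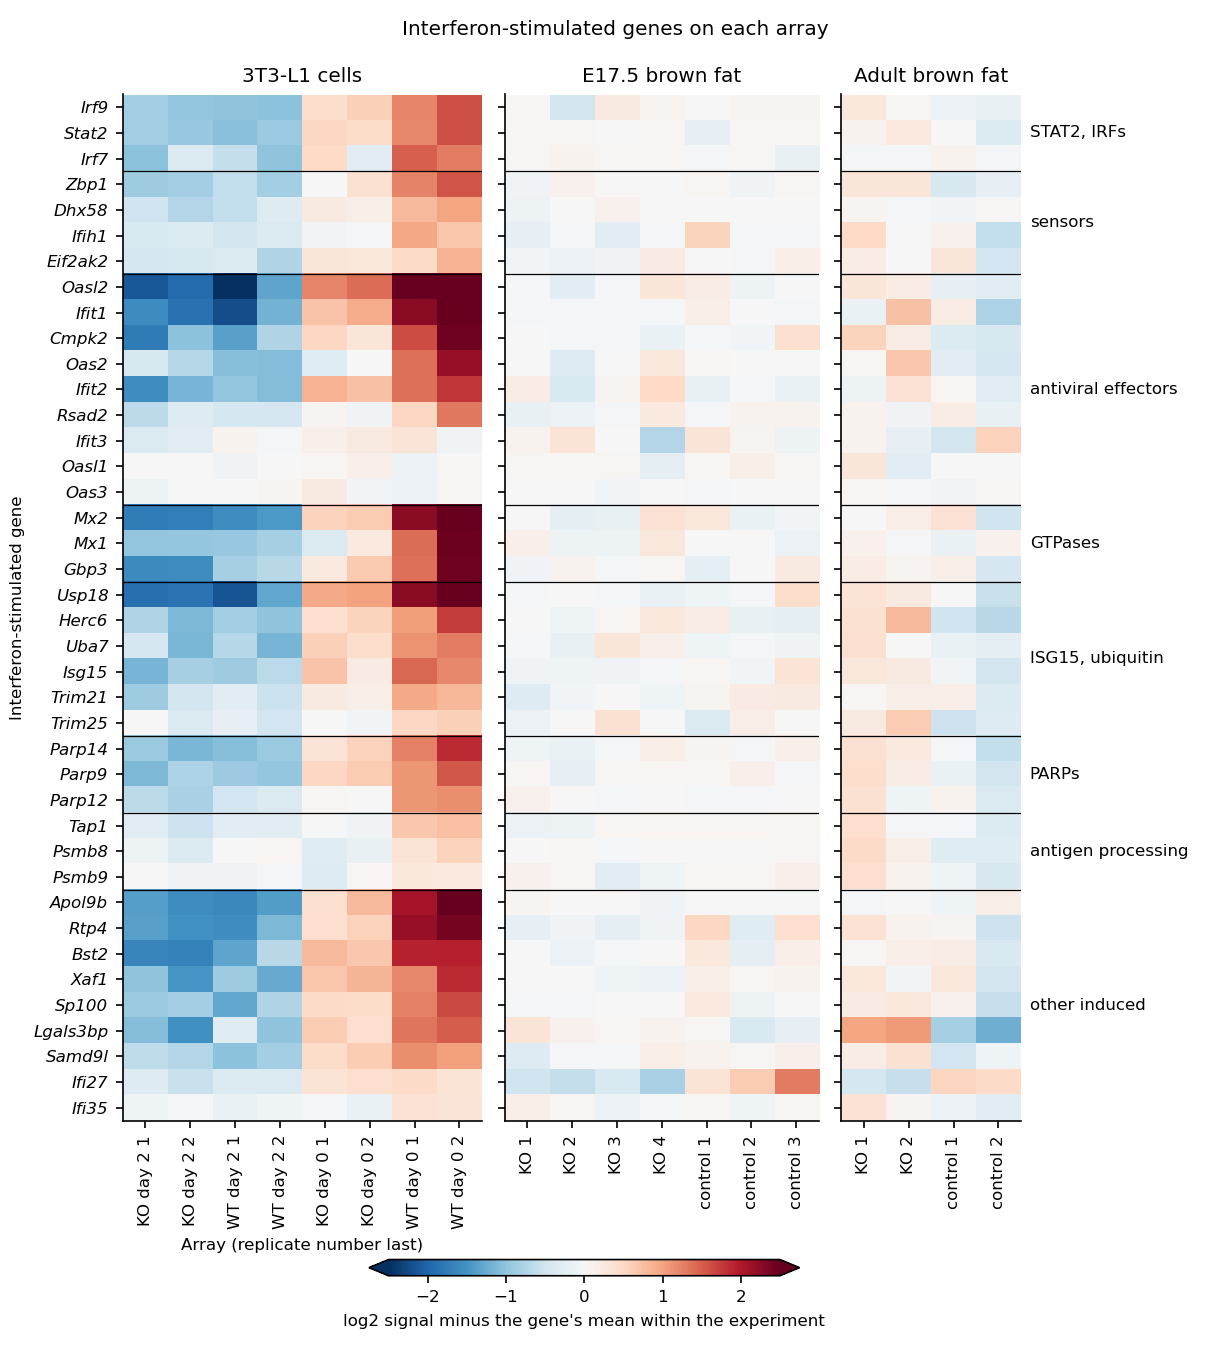
Heat map of the 40 genes (down the page, by role) on the 19 arrays (across, by group), coloured by log2 signal minus the gene's mean within the experiment; colours saturate at the ends of the scale. The 2 WT arrays of day 0 are the reddest cell arrays for most genes, and Lgals3bp and Ifi27 stand out in adult brown fat.

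Of the 3 regulators of the response, 2 fell in KO cells and 3 in WT cells. Stat2, which encodes a subunit of ISGF3, had log2 signals of 6.54 and 6.46 in KO cells and 6.37 and 6.48 in WT cells on day 2, against 7.93 and 7.87 in KO cells and 8.61 and 9.02 in WT cells on day 0. Its log2 fold change was -1.40 ± 0.15 (SE) in KO cells and -2.39 ± 0.15 in WT cells (limma, adjusted p of 0.000897 and 4.01e-05, 2 arrays a group). Irf9, which gives ISGF3 its DNA contact, changed by -1.44 ± 0.15 in KO cells and by -2.43 ± 0.15 in WT cells, both past the test. Irf7, which drives interferon genes after viral sensing, changed by -0.80 ± 0.28 in KO cells, which did not pass the test (adjusted p of 0.174), and by -2.18 ± 0.28 in WT cells, which did. The groups of these 3 genes did not overlap between the days in either genotype, which is common with 2 arrays a group. Of all 22180 genes, 5173 lay lower and 5455 higher on day 2 without overlap in KO cells, and 4913 and 5892 in WT cells. Of the 40 genes, 35 lay lower without overlap in KO cells and 37 in WT cells, and 0 lay higher.

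Of a set of 9 antiviral effectors, 4 fell in KO cells and 6 in WT cells. Oasl2, of the oligoadenylate synthetase-like family, had log2 signals of 4.73 and 4.92 in KO cells and 4.33 and 5.53 in WT cells on day 2, against 8.07 and 8.25 in KO cells and 9.38 and 9.57 in WT cells on day 0. Its log2 fold change was -3.33 ± 0.31 in KO cells and -4.55 ± 0.31 in WT cells. Ifit1, which binds RNA without the host's cap marks, had 5.61 and 5.31 in KO cells and 4.95 and 6.0 in WT cells on day 2, against 7.89 and 8.10 in KO cells and 9.44 and 10.10 in WT cells on day 0. Both genes were low on all 4 day 2 arrays and highest on the WT arrays of day 0. Cmpk2, a mitochondrial nucleotide kinase, had 4.63 and 5.36 in KO cells and 5.03 and 5.64 in WT cells on day 2, against 6.91 and 6.70 in KO cells and 8.02 and 8.82 in WT cells on day 0. Ifit2 had 3.64 and 4.02 in KO cells and 4.23 and 4.10 in WT cells on day 2, against 6.06 and 5.92 in KO cells and 6.56 and 6.97 in WT cells on day 0. The day changes of Cmpk2 were -1.81 ± 0.32 in KO cells and -3.08 ± 0.32 in WT cells, and those of Ifit2 were -2.16 ± 0.18 in KO cells and -2.60 ± 0.18 in WT cells. Rsad2, which encodes viperin, changed by -0.48 ± 0.24 in KO cells, not past the test, and by -1.36 ± 0.24 in WT cells, past it. Oas2, which makes the activator of RNase L, changed by -0.39 ± 0.24 in KO cells, not past the test, and by -2.86 ± 0.24 in WT cells, past it.

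Of the antiviral GTPases, Mx2 and Gbp3 fell in both genotypes and Mx1 in WT cells. Mx2 had log2 signals of 2.94 and 2.96 in KO cells and 3.14 and 3.27 in WT cells on day 2, against 5.28 and 5.34 in KO cells and 6.96 and 7.68 in WT cells on day 0. On day 2 these values lay under the lower quartile of each array, 3.50 to 3.56, so the fall is a bound: at least 3.45-fold lower in KO cells (adjusted p of 0.000313) and at least 13.9-fold lower in WT cells (adjusted p of 2.18e-05), taking the quartile as the floor. Gbp3, a guanylate-binding protein, had 3.46 and 3.50 in KO cells on day 2, also under the quartile, against 5.30 and 5.71 on day 0, at least 3.93-fold lower. In WT cells Gbp3 had 4.23 and 4.36 on day 2, against 6.44 and 7.49 on day 0. Mx1 changed by -0.92 ± 0.31 in KO cells, which did not pass the test, and by -2.81 ± 0.31 in WT cells.

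ISG15 is a ubiquitin-like protein that is joined to other proteins, UBA7 is its activating enzyme, HERC6 is its ligase in the mouse and USP18 removes it and also restrains the receptor. Usp18 had log2 signals of 5.03 and 5.08 in KO cells and 4.77 and 5.62 in WT cells on day 2, against 7.87 and 7.92 in KO cells and 9.17 and 9.91 in WT cells on day 0. Isg15 had 5.35 and 5.69 in KO cells and 5.64 and 5.85 in WT cells on day 2, against 7.24 and 6.72 in KO cells and 7.95 and 7.72 in WT cells on day 0. Of this set 5 of 6 genes fell in KO cells and 6 of 6 in WT cells. Their WT day changes ran from -4.35 for Usp18 through Herc6, Uba7, Isg15 and the ubiquitin ligase gene Trim21 to -0.89 for Trim25, another ubiquitin ligase gene, whose -0.15 ± 0.16 in KO cells did not pass the test.

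The sensors of foreign RNA and DNA fell as well, 3 of 4 in KO cells and 4 of 4 in WT cells. Zbp1, a sensor of Z-form nucleic acid, changed by -1.07 ± 0.17 in KO cells and -2.14 ± 0.17 in WT cells. Dhx58, which encodes LGP2, and Eif2ak2, which encodes the RNA-activated kinase PKR, fell in both genotypes, with -0.80 and -0.70 in KO cells and -1.37 and -1.23 in WT cells. Ifih1, which encodes the RNA sensor MDA5, changed by -0.32 ± 0.13 in KO cells, not past the test, and by -1.24 ± 0.13 in WT cells, past it. The ADP-ribosyltransferase genes Parp9, Parp12 and Parp14 fell in both genotypes, between -1.52 and -0.75 in KO cells and between -2.56 and -1.55 in WT cells.

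Of 3 genes of antigen processing, 0 fell in KO cells (limma, 1 at an unadjusted p under 0.05) and 1 in WT cells. Tap1, the peptide transporter, changed by -0.35 ± 0.13 in KO cells, not past the test, and by -0.97 ± 0.13 in WT cells, past it. The immunoproteasome genes Psmb8 and Psmb9 passed in neither genotype, with 0.01 and 0.10 in KO cells and -0.42 and -0.32 in WT cells. These 3 genes are neighbours on chromosome 17, and the promoter windows of Psmb9 and Tap1 overlap on opposite strands.

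Among the other induced genes 8 of 9 fell in KO cells and 9 of 9 in WT cells. Apol9b, an apolipoprotein L gene, had log2 signals of 4.38 and 4.22 in KO cells and 4.15 and 4.36 in WT cells on day 2, against 6.17 and 6.58 in KO cells and 7.85 and 8.42 in WT cells on day 0. Rtp4, a receptor transporter gene, had 5.11 and 4.95 in KO cells and 4.92 and 5.34 in WT cells on day 2, against 6.88 and 7.04 in KO cells and 8.64 and 8.87 in WT cells on day 0. Bst2, which encodes tetherin and holds budding virus at the membrane, had 6.41 and 6.36 in KO cells and 6.73 and 7.37 in WT cells on day 2, against 8.86 and 8.72 in KO cells and 9.98 and 10.00 in WT cells on day 0. In all 3 genes day 2 and day 0 were clear of each other in each genotype, which is common among all genes, as given with the regulators. Xaf1, Sp100, Samd9l and Lgals3bp fell between -2.01 and -1.23 in KO cells and between -2.60 and -2.04 in WT cells. Ifi27 changed by nearly the same amount in both, -0.81 ± 0.13 in KO cells and -0.75 ± 0.13 in WT cells. Ifi35 had 0.02 ± 0.12 in KO cells, not past the test, and -0.47 ± 0.12 in WT cells, past it.

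Some close relatives on the list did not move together. Ifit3 had log2 signals of 5.59 and 5.69 in KO cells and 6.04 and 5.92 in WT cells on day 2, against 6.09 and 6.18 in KO cells and 6.28 and 5.87 in WT cells on day 0, and it passed the test in neither genotype. Its neighbour Ifit2 on chromosome 19 had a WT day change of -2.60, against -0.10 ± 0.16 for Ifit3. Likewise Oasl1 changed by 0.02 ± 0.12 in WT cells beside -4.55 ± 0.31 for the adjacent Oasl2, and Oas3 by 0.08 ± 0.14 beside -2.86 ± 0.24 for the adjacent Oas2, both pairs on chromosome 5. These pairs were chosen after their values were seen. Oasl1 had log2 signals of 4.37 to 4.65 on the 8 cell arrays, under the array medians of 4.69 to 4.79. Oas3 had 4.88 to 5.26 on them. Whether the array detected these 2 transcripts in the cells was not tested. Ifit3b, a near-identical copy of Ifit3 with a cluster of its own, fell in WT cells with -2.23 ± 0.27, so how the probes of the array divide the 2 copies is uncertain. Ifit3, Oas3 and 10 genes that fell in WT cells carry the promoter core shown above, and the median WT day change was -1.73 for the 12 genes with the core and -2.11 for the 18 genes with a window and no match.

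**Figure D3:**
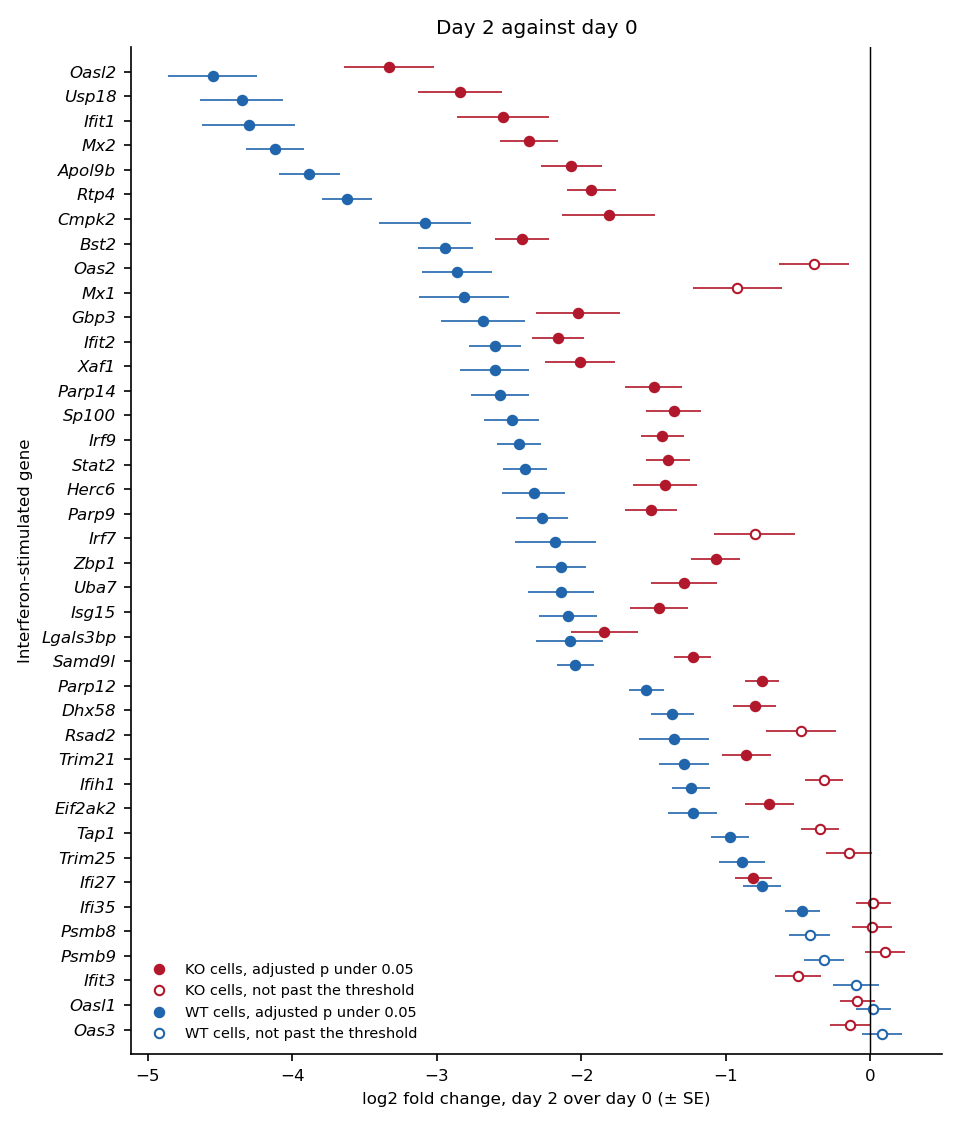
Log2 fold change of day 2 over day 0 for each of the 40 genes (± SE) in KO cells (red) and WT cells (blue), filled where the adjusted p was under 0.05. The WT points run from -4.55 for Oasl2 to 0.08 for Oas3. For 36 of 40 genes the KO change is the smaller in size, against 57.3% of all genes.

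On day 0, as the titles give it, part of the list was lower in KO cells than in WT cells. In number, 7 of the 40 genes were lower in KO cells and 0 higher (limma, adjusted p under 0.05), where 0.158% of all genes were called lower and 0.0271% higher. In 36 of the 40 both KO arrays lay below both WT arrays, against 16.1% of all genes. The median log2 fold change was -0.89, against 0.01 over all genes, and 8 of the 20 lowest fold changes of all 22180 genes were of this list.

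The 7 genes come from several roles. Mx2 was lowest, with the day 0 signals given above and a log2 fold change of -2.01 ± 0.20 (adjusted p of 0.0107). Oas2 had log2 signals of 5.33 and 5.62 in KO cells, against 7.02 and 7.82 in WT cells, a fold change of -1.95 ± 0.24 (adjusted p of 0.0186). Rtp4 changed by -1.80 ± 0.17 (adjusted p of 0.008) and Apol9b by -1.76 ± 0.21 (adjusted p of 0.0165). For each of these 4 genes the day change in WT cells was larger in size than this difference. Zbp1 had 5.67 and 6.03 in KO cells, against 6.90 and 7.22 in WT cells, and changed by -1.21 ± 0.17. Parp12 had 7.26 and 7.24 in KO cells, against 8.33 and 8.38 in WT cells, and changed by -1.11 ± 0.12. Ifih1 had 4.20 and 4.22 in KO cells, against 5.22 and 4.95 in WT cells, and changed by -0.88 ± 0.13. In all 7 genes the arrays of the genotypes did not overlap, as in 16.1% of all genes in this direction.

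The regulators, Isg15, Usp18 and Gbp3 had negative values that did not pass the test. Stat2 changed by -0.92 ± 0.15 (adjusted p of 0.0757) and Irf9, with 7.68 and 7.85 in KO cells, against 8.47 and 8.85 in WT cells, by -0.89 ± 0.15 (adjusted p of 0.0921). Irf7 had 6.89 and 6.11 in KO cells, against 7.88 and 7.68 in WT cells, a change of -1.28 ± 0.28 (adjusted p of 0.295). Usp18 changed by -1.65 ± 0.29 (adjusted p of 0.0931), Isg15 by -0.85 ± 0.20 (adjusted p of 0.35) and Gbp3 by -1.46 ± 0.29 (adjusted p of 0.171). The arrays of these 6 genes did not overlap on day 0, which also held for 16.1% of all genes in this direction. Mx1 and Ifit1, with -1.98 ± 0.31 and -1.77 ± 0.32, had changes as large as the called genes and larger errors. The genes at the other end were Oasl1, Oas3 and Ifit3, with 0.16, 0.13 and 0.06, and Ifi27, with -0.02.

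The count of 7 rests on few arrays. Without KO day 0 replicate 1 or KO day 0 replicate 2 it was 0, without WT day 0 replicate 2 it was 1, and with 1 fit of all 19 arrays it was 21. WT day 0 replicate 2, an array with disagreeing labels, was the highest cell array for 29 of the 40 genes. Without it the median was -0.74, by the source label 0 genes were called with a median of -0.40, and on the arrays on which both labels agree 38 of 40 genes were lower in KO cells with a median of -0.71. Of 10 macrophage genes and 7 genes of plasmacytoid dendritic cells 0 passed the test on day 0 by limma, and 1 and 2 of them had an unadjusted p under 0.05. Of those 2 plasmacytoid genes 1 is Bst2, which is itself one of the 40 (-1.20 ± 0.19).

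On day 2 the genotype comparison called none of the list. Of the 40 genes 0 passed, against 0.234% of all genes lower and 0.0316% higher, and 4 had an unadjusted p under 0.05 (limma). In 11 genes both KO arrays lay below both WT arrays, against 18.9% of all genes, and the median log2 fold change was -0.09. Stat2 changed by 0.07 ± 0.15, Irf9, with log2 signals of 6.4 and 6.25 in KO cells against 6.24 and 6.22 in WT cells, by 0.10 ± 0.15, and Irf7, with 5.37 and 6.04 in KO cells against 5.80 and 5.39 in WT cells, by 0.11 ± 0.28. Isg15 changed by -0.22 ± 0.20 and Usp18 by -0.14 ± 0.29. The lowest values were -0.81 ± 0.29 for Gbp3, which was under the lower quartile in KO cells, and -0.66 for Bst2 and for Lgals3bp. By the source label 0 genes were called on day 2 and the median was -0.59. A p that misses the threshold does not show that the genotypes are alike. The adipocyte list differed on day 2, where 4 of its 8 genes were lower in KO cells, with a list median of -1.04.

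**Figure D4:**
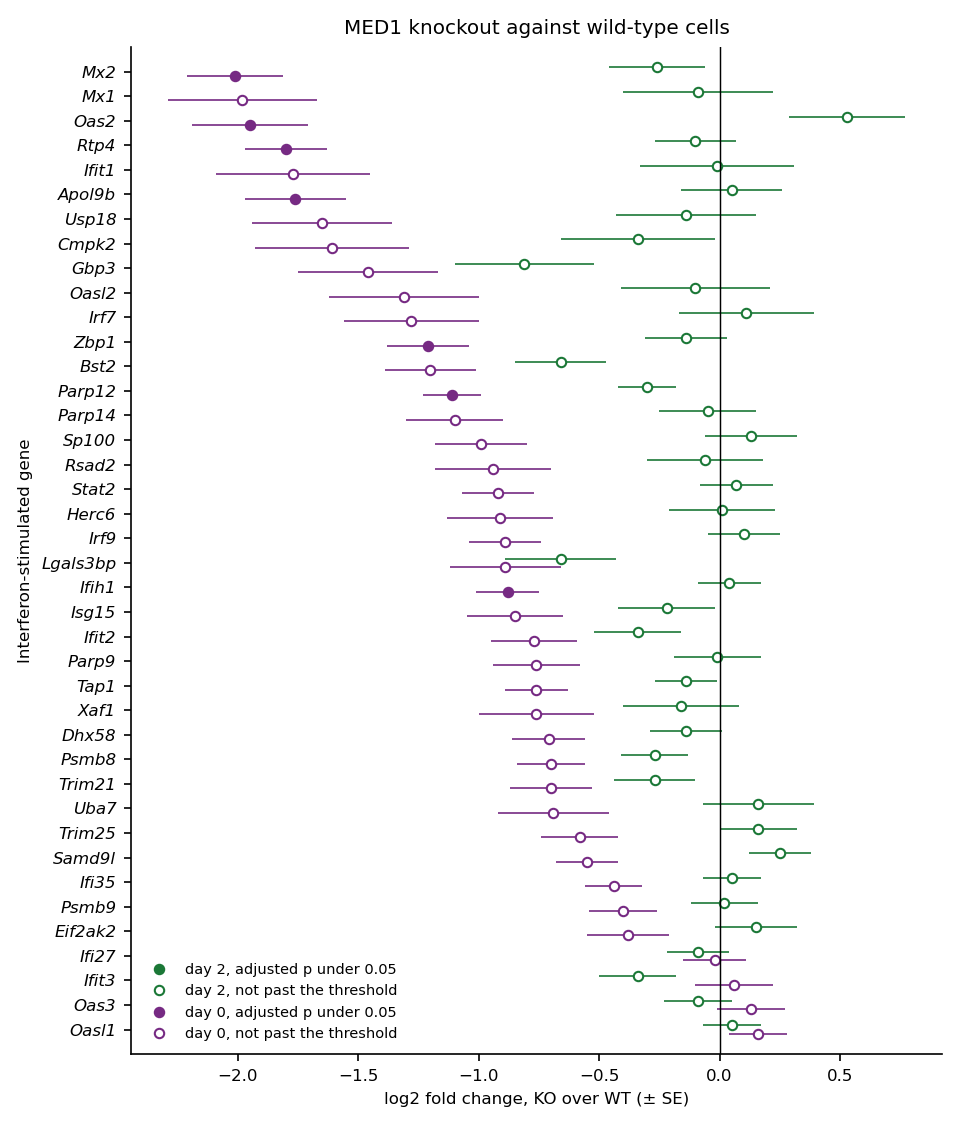
Log2 fold change of KO over WT cells for each of the 40 genes (± SE) on day 2 (green) and day 0 (purple), filled where the adjusted p was under 0.05. The day 0 values run from -2.01 for Mx2 to 0.16 for Oasl1, while the day 2 values lie between -0.81 and 0.53.

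The difference between the day changes, KO minus WT, was positive for 36 of the 40 genes, against 10894 of 22180 genes, with a median of 0.80 on the log2 scale. By limma 0 of the 40 genes and 0% of all genes, in either direction, passed the test of this difference after adjustment, while 26 of the 40 and 941 of 22180 had an unadjusted p under 0.05. The highest value of all 22180 genes was that of Oas2, 2.47 ± 0.34 (adjusted p of 0.161), and Rtp4 had 1.69 ± 0.24 (adjusted p of 0.163). With 1 fit of all 19 arrays 2 genes of the list passed, and without WT day 0 replicate 1 also 2. Both day changes use different arrays, and across the 40 genes they had a Pearson r of 0.89, against 0.79 across all genes; genes are not independent replicates. By construction this value is the genotype difference on day 2 minus that on day 0, so it rests on the same arrays as both.

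The 4 pairs of a KO and a WT array with the same title day and replicate number are the same by either label, so they were compared without regard to the day. Over the pairs 2 of the 40 genes were lower in KO cells and 0 higher, where 0.212% of all genes were called lower and 0.0766% higher. Gbp3 changed by -1.14 ± 0.16 (limma, adjusted p of 0.046) and Lgals3bp, a secreted glycoprotein, by -0.78 ± 0.10 (adjusted p of 0.0358). Lgals3bp had log2 signals of 7.95 and 7.51 in KO cells and 8.74 and 8.04 in WT cells on day 2, and 9.68 and 9.47 in KO cells and 10.38 and 10.56 in WT cells on day 0. Both genes were lower in KO cells in 4 of 4 pairs. So were 13 of the 40 genes in all, against 2402 of 22180 genes. The median over the list was -0.49. Neither call held when any 1 of the 4 pairs was left out: the count was 0, except without the pair of day 2 replicate 1, where a different gene, Bst2, was called. Without the pair as a block neither passed the test, and 4 other genes, Mx2, Rtp4, Bst2 and Parp12, were called.

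The rest of the pathway moved in part. Of 19 interferon genes measured, 9 receptor and kinase genes and 6 genes of negative feedback, 0 passed the test in any cell comparison by limma. At most 4, 2 and 2 of them had an unadjusted p under 0.05 in a comparison. Ifnb1, which encodes interferon beta, lay under the array's lower quartile on every cell array. Of the 19 interferon genes only 6 to 8 lay under it on each cell array, and Ifnl2 had log2 signals of 6.57 to 7.38. Of 5 measured STAT and IRF genes outside the list, Irf1 fell in KO cells (-0.62 ± 0.14) and in WT cells (-0.79 ± 0.14), Irf2 rose in KO cells (0.68 ± 0.13) and in WT cells (0.48 ± 0.13), and Stat3 rose in WT cells (0.87 ± 0.15). Of 11 genes of nucleic acid sensing, 3 fell in each genotype: Ddx58, which encodes the RNA sensor RIG-I, by 1.06 in KO cells and 1.68 in WT cells, Sting1 by 1.30 and 1.34 and Tlr3 by 1.71 and 2.17. Of 57 further induced genes 18 fell and 1 rose in KO cells, and 29 fell and 1 rose in WT cells. Their median log2 fold change was -0.30 in KO cells and -0.65 in WT cells. The guanylate-binding gene Gbp7 and the immunity-related GTPase gene Iigp1 had the largest falls among these in WT cells, 3.49 and 3.44 on the log2 scale. The one that rose was Ifi204, with 2.73 ± 0.25 in KO cells and 2.06 ± 0.25 in WT cells. On day 0, 7 of the 57 were lower in KO cells than in WT cells, among them Ddx60 (-1.82 ± 0.26), Ifit3b (-1.81 ± 0.27), Iigp1 (-1.69 ± 0.18), Phf11d (-1.63 ± 0.22), Gbp4 (-1.47 ± 0.20) and Gbp7 (-1.33 ± 0.18). The comparisons of days and of genotypes on day 0 share the day 0 arrays.

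In embryonic brown fat a single gene of the list passed the test. At E17.5, 1 of the 40 genes was lower in KO than in control tissue and 0 higher, against 0.5% of all genes lower and 0.658% higher (limma, adjusted p under 0.05). In 3 of the 40 genes all 4 KO arrays lay below all 3 controls, against 6.83% of all genes, and the median log2 fold change was -0.06. The 1 gene was Ifi27, which encodes a small mitochondrial membrane protein, with log2 signals of 7.53, 7.44, 7.65 and 7.21 in KO tissue, against 8.38, 8.67 and 9.33 in control tissue, a change of -1.34 ± 0.22 (adjusted p of 0.0479). Its groups were clear of each other, but leaving out any 1 of the 7 arrays left 0 genes of the list and 0 of all genes called.

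None of the regulators passed the test at E17.5. Stat2 had log2 signals of 4.99, 4.99, 4.95 and 5.01 in KO tissue, against 4.76, 4.99 and 5.0 in control tissue. Irf9 had 6.01, 5.52, 6.20 and 6.05 in KO tissue, against 5.98, 6.04 and 6.04 in control tissue. Irf7, with 3.85 to 3.90 in KO tissue and 3.64 to 3.85 in control tissue, changed by 0.10 ± 0.06, which did not pass the test. The groups of Irf7 met at 1 shared value, 3.85, with every KO value at or above every control value, and those of Stat2 and Irf9 overlapped more widely. Isg15 had 3.42, 3.41, 3.43 and 3.49 in KO tissue, against 3.57, 3.45 and 3.85 in control tissue. Usp18 had 3.87, 3.91, 3.86 and 3.75 in KO tissue, against 3.81, 3.87 and 4.35 in control tissue. Gbp3 had 2.87, 3.04, 2.94 and 3.01 in KO tissue, against 2.71, 2.96 and 3.19 in control tissue. The groups overlapped in all of these as well. For 15 of the 40 genes at least 3 of the 7 embryonic arrays hold exactly the same deposited value, as do 33.5% of all genes there, which makes the spread of such genes small. Med1 itself overlapped at E17.5, with 7.0, 7.10, 7.10 and 6.88 in KO tissue, against 6.94, 7.33 and 7.82 in control tissue. Ucp1, the heat-making protein of brown fat, had 7.23 to 8.34 in KO tissue and 10.07 to 11.59 in control tissue. Of 10 macrophage genes 0 passed the test at E17.5 (limma, 3 at an unadjusted p under 0.05), with a list median of 0.19. Of 8 skeletal muscle genes 7 were higher on every KO array, against 1899 of 22180 genes. Their list median was 1.16, and 0 passed the test (limma, 7 at an unadjusted p under 0.05). Of 8 fibroblast genes Col1a1 and Col3a1 were called higher, with a list median of 0.61. Of 8 brown fat genes Ucp1 and Dio2 were called lower, with a list median of -1.10. All 8 adipocyte genes were negative, with a list median of -0.55, and 0 passed the test. The part of these changes in the Ifi27 value was not tested. In such bulk tissue fewer cells of a type and less RNA per cell cannot be told apart.

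In adult brown fat most of the list was higher in KO tissue without passing the test. With 2 arrays a group, 0 of the 40 genes were called, against 0.0135% of all genes in each direction, and 16 of the 40 and 3013 of 22180 genes had an unadjusted p under 0.05 (limma). In 21 of the 40 both KO arrays lay above both controls, against 21.8% of all genes, 35 of 40 had a positive log2 fold change, and the median was 0.41, against 0.00 over all genes. Lgals3bp had log2 signals of 9.86 and 9.94 in KO tissue, against 8.06 and 7.67 in control tissue, a change of 2.03 ± 0.18 (adjusted p of 0.0521). Herc6 had 5.20 and 5.63 in KO tissue, against 4.32 and 4.13 in control tissue, a change of 1.19 ± 0.19 (adjusted p of 0.105). Both were clear of the controls. Ifi27 went the other way, with 9.65 and 9.51 in KO tissue, against 10.61 and 10.56 in control tissue, a change of -1.01 ± 0.14 (adjusted p of 0.0813).

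Among the regulators Stat2 had 4.96 and 5.11 in adult KO tissue, against 4.87 and 4.52 in control tissue, and Irf9 had 4.60 and 4.34, against 4.16 and 4.13. Irf7 had 3.82 and 3.81 in KO tissue, against 3.92 and 3.81 in control tissue, a change of -0.05 ± 0.13. Isg15 had 4.19 and 4.13 in KO tissue, against 3.84 and 3.45 in control tissue, and Usp18 had 4.04 and 3.91, against 3.69 and 3.13. Gbp3 overlapped, with 3.68 and 3.56 in KO tissue and 3.64 and 3.07 in control tissue. Cmpk2, Trim25, Oas2, Parp9, Parp14, Psmb8, Zbp1 and Samd9l lay between 0.57 and 0.84, each not past the test.

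Med1 had log2 signals of 5.28 and 5.13 in adult KO tissue, against 5.99 and 6.90 in control tissue, a change of -1.24 ± 0.31 that did not pass the test (adjusted p of 0.19). Ucp1 had 10.90 and 11.75 in KO tissue, against 12.09 and 12.50 in control tissue. All 8 brown fat markers had a negative log2 fold change in the adult, with a list median of -0.80, and 0 passed the test (limma, 3 at an unadjusted p under 0.05). The lowest was Elovl3, a fatty acid elongase gene, with 3.28 and 3.85 in KO tissue, against 6.35 and 8.10 in control tissue. Control replicate 2 held the lowest adult value for 29 of the 40 genes, and without it the median log2 fold change was 0.18. With 1 fit of all 19 arrays 10 genes passed, 9 higher and 1 lower in KO tissue. Markers of macrophages moved with the list in the adult: all 10 were higher on both KO arrays, none past the test (limma, 9 at an unadjusted p under 0.05), with a median of 1.30 and a mean log2 signal of 6.61 and 6.87 in KO tissue, against 5.54 and 5.32 in control tissue. The summed linear signal of the 10 genes was 1470 and 1660 in KO tissue, against 665 and 550 in control tissue. Adgre1, which encodes a macrophage surface receptor, had log2 signals of 6.10 and 6.11 in KO tissue, against 4.75 and 4.46 in control tissue, and none of the 10 lay under its array's lower quartile. The mean level of 8 T and NK cell genes was 3.16 and 3.48 in KO tissue, against 2.90 and 2.69 in control tissue. Of 8 fibroblast genes 7 were positive, with a list median of 0.63, and of 8 adipocyte genes 7 were negative, with a list median of -0.67; 0 of either passed the test (limma, 7 and 5 at an unadjusted p under 0.05). The part of these cells in the levels of the interferon-stimulated genes was not tested.

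**Figure D5:**
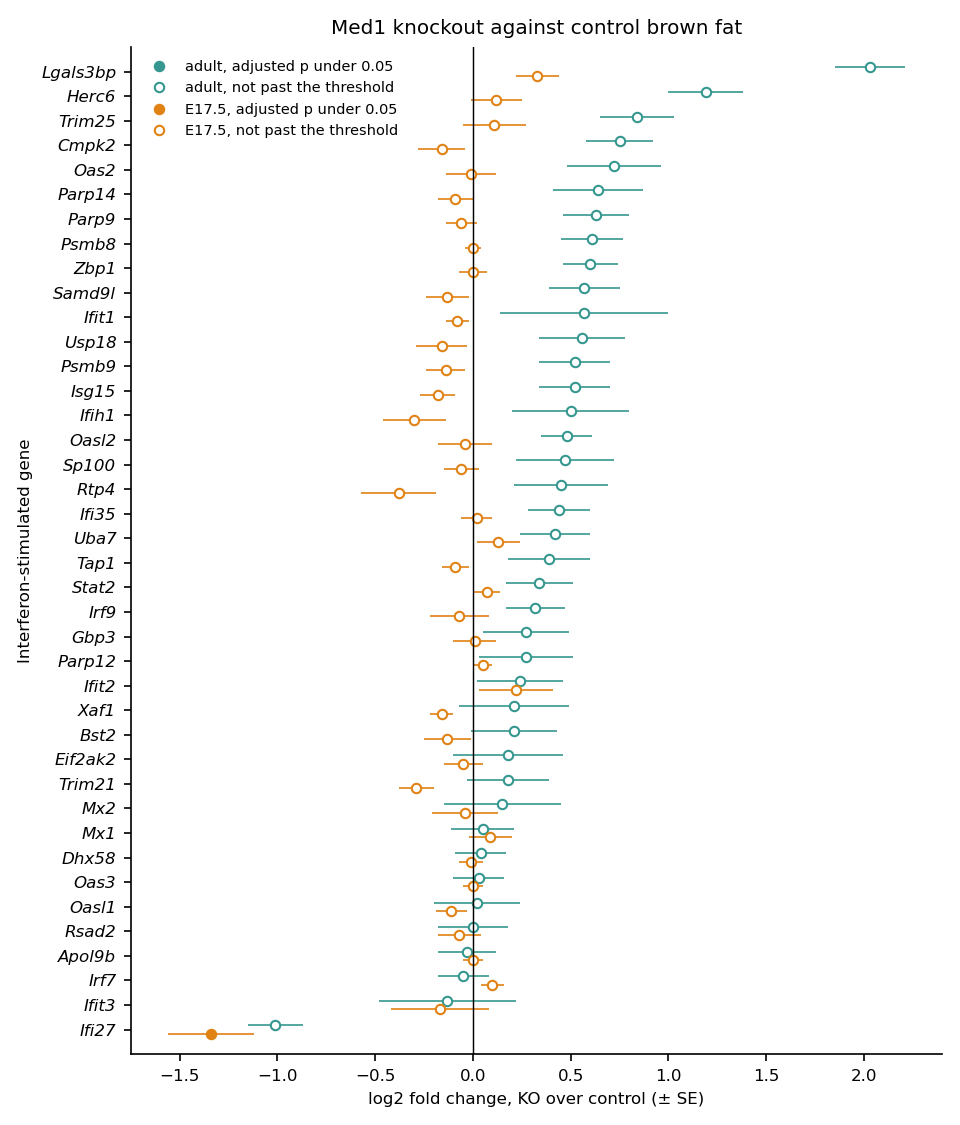
Log2 fold change of KO over control brown fat for each of the 40 genes (± SE) in adult mice (teal) and E17.5 embryos (orange), filled where the adjusted p was under 0.05. The adult values run from 2.03 for Lgals3bp to -1.01 for Ifi27, and at E17.5 the one filled point is Ifi27 at -1.34.

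The knockout effect in the adult minus that in the embryo was positive for 37 of the 40 genes, with a median of 0.44 on the log2 scale, against 0.01 over all genes. In this test 3 of the 40 genes were called higher and 0 lower, where 1.28% of all genes were called higher and 0.703% lower. They were Lgals3bp with 1.71 ± 0.20 (limma, adjusted p of 0.00446), Herc6 with 1.07 ± 0.23 (adjusted p of 0.0449) and Psmb8 with 0.62 ± 0.14 (adjusted p of 0.0491). This test pools the spread of all brown fat arrays, so near-equal embryonic values make its SE smaller. For Psmb8 the standard deviation was 0.03 in E17.5 KO and 0.02 in E17.5 control tissue, against 0.24 in adult KO and 0.01 in adult control tissue. Without any 1 of the 3 E17.5 controls, E17.5 KO replicate 1, 2 or 3 or adult control replicate 2, 1 gene was called. Of the other pathway genes H2-K1, a class I antigen gene, had 2.28 ± 0.21, the chemokine gene Ccl5 1.06 ± 0.14 and the receptor gene Ifnar2 0.87 ± 0.16, all past the test. On the macrophage list Adgre1, Csf1r and Ptprc passed it too, with 1.33 ± 0.16, 1.15 ± 0.18 and 1.55 ± 0.29. So did Cd3e, Cd4 and Nkg7 on the list of 8 T and NK cell genes, with 1.41 ± 0.19, 0.83 ± 0.16 and 0.69 ± 0.14. The part of these cells in the 3 calls was not tested. The stages also differ in the Cre driver, in their controls and, it seems, in the normalization run. The E17.5 controls carry Cre and 1 floxed allele, while the adult controls have both alleles floxed and no Cre. Stage, driver, control genotype and run cannot be told apart. For Ifi27 the difference was 0.33 ± 0.31, not past the test, beside a lower value in KO tissue at both stages.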

How the data were processed

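The values analysed were log2 signals per transcript cluster, as deposited by the authors in 1 value table of 41345 clusters and 19 arrays. RMA and Transcriptome Analysis Console made them, per the submitters' processing notes, which give no versions; the annotation's genome build is not given in the sources used here. No further normalization was applied to the table. The platform annotation gives 1 symbol for 23521 clusters, several for 1814 and none for 16010, and 22180 genes remained. Array medians were 4.69 to 4.79 in cells, 3.49 to 3.57 at E17.5 and 2.87 to 2.89 in the adult. Each experiment was therefore fitted alone, with 1 exception. The adult effect minus the E17.5 effect was fitted on all brown fat arrays together, with a shared estimate of the spread. Only differences within a stage enter that comparison. Linear models with moderated variances, from limma 3.58.1 under R 4.3.3, gave log2 fold changes, SE and p-values adjusted by Benjamini-Hochberg over all genes, with a threshold of 0.05. The models were also run on simulated data with independent noise for each gene. Those data hold no spread shared between genes and no tied values, so that run says nothing about either. The number of arrays limits the precision. A gene under the lower quartile of every array of a group was given a bound.

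Every gene of the list with a value is named. Arrays are given one by one for up to 8 called genes with the largest change in a comparison and for Stat2, Irf9, Irf7, Isg15, Usp18 and Gbp3 between genotypes; of other pathway lists, up to 6 called genes a comparison. The members and lists were chosen with earlier results of these data known. Same-numbered replicates had correlated deviations of 0.35 between genotypes on day 0, 0.30 on day 2, 0.03 between days in WT cells and 0.17 in KO cells, from -0.02 to 0.31 at E17.5 and 0.33 in the adult, which does not establish pairing. Alternatives were the normalization, a filter on dim genes, the mean of a gene's clusters, eBayes with trend, 1 fit of all arrays, the replicate block, the source label and leaving out arrays.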

Additional observations from a re-analysis of the deposited data

Results flagged for a closer look

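In the E17.5 KO group of 4 arrays, 4 genes had 1 array apart from 3 equal ones: Oas3 with a log2 signal of 3.71 on KO replicate 3 (3.79 on the others), Oasl1 with 3.11 on KO replicate 4 (3.37), Irf7 with 3.90 on KO replicate 2 (3.85) and Parp9 with 4.40 on KO replicate 2 (4.63). Of 41 such series of values tested, chance gives about 1 in 20 where values are not tied. With 3 equal values the gap makes up the whole range whatever its size, so this rate does not apply to these 4 genes.

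The knockout effect differed between adult and E17.5 brown fat, by limma's test of the difference, for Lgals3bp (1.71 on the log2 scale), Herc6 (1.07) and Psmb8 (0.62).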

How the results depend on the processing

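By the source label 0 of the 40 genes were called over the days in KO or WT cells and between genotypes on day 0, the medians were 0.00 in KO cells and 0.15 in WT cells over the days, and 41 called values changed sign. In KO cells these were Ifit2 0.12, Mx2 0.04, Oasl2 0.18, Usp18 0.05, Zbp1 0.19, Irf9 0.01, Gbp3 0.23, Cmpk2 0.26, Parp9 0.23, Parp14 0.01, Trim21 0.18, Apol9b 0.12, Samd9l 0.04 and Sp100 0.02. In WT cells they were Ifit1 0.86, Ifit2 0.14, Mx1 0.58, Mx2 0.42, Oas2 0.39, Oasl2 0.69, Rtp4 0.33, Usp18 0.79, Zbp1 0.05, Dhx58 0.23, Irf9 0.19, Stat2 0.26, Gbp3 0.59, Bst2 0.33, Ifi35 0.02, Cmpk2 0.71, Rsad2 0.41, Parp9 0.20, Parp12 0.08, Parp14 0.37, Tap1 0.04, Xaf1 0.15, Eif2ak2 0.00, Apol9b 0.39, Herc6 0.29, Samd9l 0.02 and Sp100 0.46. Each source-label group mixes 1 array of each title day. The setting with only arrays whose labels agree was chosen after seeing the data.

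With 1 fit of all 19 arrays 21 genes were called on day 0, 2 in the difference of the day changes, 13 over the 4 pairs and 10 in the adult. Over the pairs the mean of a gene's clusters and quantile normalization each left 1 gene, and no replicate block gave 4, none of them Gbp3 or Lgals3bp, so both calls over the pairs depend on the block. With the replicate block 0 genes were called at E17.5 and 1 in the adult, and over the days 26 in KO cells and 35 in WT cells; the numbers do not establish pairing. In the adult the filter on dim genes, quantile normalization, median centring and eBayes with trend each called 1. For the adult minus the E17.5 effect, quantile normalization and eBayes with trend each left 1. Leaving out an array gave 19 to 28 called genes over the days in KO cells, 33 to 34 in WT cells, 0 to 10 on day 0, 0 on day 2, 0 to 2 for the difference of the day changes, 0 to 1 over the pairs, 0 at E17.5, 0 in the adult and 1 to 4 for adult minus E17.5. The causes were not tested.

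Counts over all genes also moved. On day 0 they were 41, against 88 in the fit of all arrays, 1 by the source label and 3 to 40 without an array. On day 2 they were 59, against 120, 0 and 12 to 47. Over the days they were 1265 in KO cells (0 by the source label, 496 to 1282 without an array) and 2012 in WT cells (0 and 1143 to 1714). For the difference of the day changes 0 became 11 in the fit of all arrays, 1 with the replicate block and up to 2 without an array. Over the pairs 64 became 98 with the dim filter, 245 with trend, 177 in the fit of all arrays and 20 to 32 without a pair. At E17.5, 257 became 413 with the dim filter, 386 with median centring, 1527 in the fit of all arrays, and 0 with the block or without any array. In the adult 6 became 57 with the dim filter, 64 with quantile normalization, 64 with median centring, 78 with trend, 2049 in the fit of all arrays, 139 with the block and 0 without any array. For adult minus E17.5, 441 became 773 in the fit of all arrays and 206 to 524 without an array. Of all called values under the alternatives 1007 kept direction and call, 143 lost the call and 41 reversed.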
